A study of Bos taurus with 4 samples.

Results

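Nucleoporins and nuclear transport receptors were described in sperm RNA of high- and low-fertile buffalo bulls. The genes were taken by symbol: every sample probe whose gene name was a nucleoporin (NUP or NUPL with a number), an importin or karyopherin (IPO, KPNA or KPNB), an exportin (XPO), a transportin (TNPO), a Ran-binding protein (RANBP) or RAN itself. This gave 52 genes with 127 probes on 133 spots, of 32429 gene names, 51282 probes and 61657 spots on the array. The group was proposed because the probe of NUP205 was among those with the largest falls from high-fertile to low-fertile pools. The low-fertile against high-fertile values of its members are therefore given as a description and carry no test of their own.

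The study used a bovine 1-dye expression array, on 4 arrays of a single slide. Each array carried labelled RNA of a pool made from equal amounts of sperm RNA of 2 bulls, with 2 pools from high-fertile and 2 from low-fertile bulls. The bulls were Murrah buffalo, breeding males with no treatment named, ranked by their field conception rate after adjustment for non-genetic factors. High-fertile bulls lay above the mean by 1 standard deviation or more and low-fertile bulls lay below it by as much. Ages were not given in the sources used here. RNA of both groups came from spermatozoa selected on Percoll, a density gradient that enriches intact sperm, and was amplified from an oligo-dT primer. The labels name cattle as the organism and buffalo in the description, and the probes were designed on cattle sequence. Which bulls made up which pool was not given, so the pool was the replicate, and spread between pools is not spread between bulls. Pools of the same fertility shared a row of that slide, and the rows of the groups differed, so row and fertility group cannot be told apart.

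Traffic in and out of the nucleus runs through the nuclear pore complex, a ring of nucleoporins set in the nuclear envelope. Scaffold nucleoporins build an outer ring (the Y complex) and an inner ring, nucleoporins with phenylalanine-glycine repeats fill the channel, and others form the cytoplasmic filaments and the nuclear basket. Importins and exportins carry cargo through the channel, and the small GTPase Ran sets the direction by loading or releasing that cargo. During sperm formation the nucleus is compacted and most of its envelope pores are lost from the sperm head, transcription stops, and RNA in the mature cell is largely left from earlier stages. In RNA of many cells, fewer cells of a type and less RNA per cell cannot be told apart.

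The probe sequences on which the values below rest are shown here, as the array design gives them, because several genes are read differently by different probes. Each probe is 60 bases long, places are on the cattle build Btau_3.1 named in the scanner files, and the start in the transcript is that of the design. For probes that may lie beyond the coding part, the opening 30 bases are given. The NUP205 probe (transcript base 6146, chr4:103039556-103039615, plus strand) is the only probe of that gene. The 2 probes of RAN at transcript bases 515 and 522 (chr17:48796643-48796702 and chr17:48796636-48796695, minus strand) overlap by 53 bases of which 3 differ, and capitals mark the bases they share. The 3 probes of KPNA2 (chr19, minus strand) are shown because neighbouring probes gave different values, and in the probe at base 876 capitals mark the 45 bases that its mapped interval, chr19:50460933-50460977, covers. The IPO5 probe at base 1736 is shown because its mapped place, chr2:86751113-86751172 (minus strand), is not on the chromosome of the other IPO5 probes, and capitals mark the bases in runs of 20 that probes of other genes also hold.
NUP205, base 6146: ctttctttatatatggacttcttttctgta
RAN, base 515: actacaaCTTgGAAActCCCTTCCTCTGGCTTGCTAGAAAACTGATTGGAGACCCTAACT
RAN, base 522: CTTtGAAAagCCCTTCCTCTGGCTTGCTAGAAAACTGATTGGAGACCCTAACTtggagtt
RAN, base 981: gagaggtggaatcttgtttgttactgtcat
NUP88, base 2359: cagtctcataatttataaagaggtattctg
NUP43, base 803: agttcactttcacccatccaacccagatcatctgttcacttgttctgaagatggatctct
KPNA1, base 2593: gtacagttctaatactggtatgaagattta
KPNA2, base 876: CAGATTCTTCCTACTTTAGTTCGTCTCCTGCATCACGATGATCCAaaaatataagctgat
KPNA2, base 969: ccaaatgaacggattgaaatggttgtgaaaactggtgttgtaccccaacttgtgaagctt
KPNA2, base 1848: aacagttccaaactgtacatactgtatgaa
IPO5, base 1736: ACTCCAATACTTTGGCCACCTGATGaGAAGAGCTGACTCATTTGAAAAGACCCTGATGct

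Many nucleoporin and transport receptor probes were not well above background. The scanner software marks a spot as well above background when its signal clears the noise of the background by a set margin. On the arrays of high-fertile pools 1 and 2, 43 and 46 of the 127 probes carried this mark, and on those of low-fertile pools 1 and 2, 51 and 26 did. As shares these were 33.9%, 36.2%, 40.2% and 20.5%. Of all 51282 probes, 23271 (45.4%) and 23228 (45.3%) carried it for the high-fertile pools, and 25642 and 13033 (25.4%) for the low-fertile pools. The low share in low-fertile pool 2 was thus seen for the members and for the array as a whole. On none of the 4 arrays were 68 of the probes (53.5%) well above background, against 42.7% of all probes, and no member probe was saturated.

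**Figure D1:**
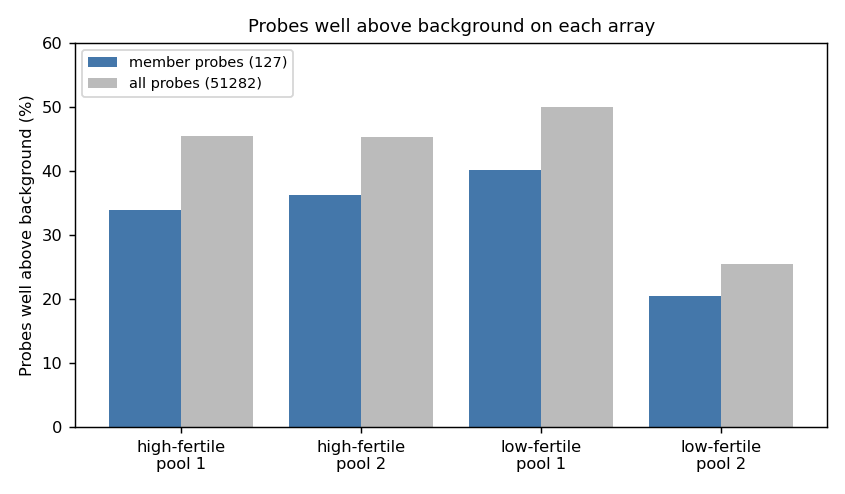
Share of probes marked as well above background on each array (percent), for the 127 member probes and for all 51282 probes. The member share is below the share of all probes on each of the 4 arrays, and both are lowest in low-fertile pool 2.

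A probe was compared between groups where both pools of a group, or of both groups, showed it well above background, as was the case for 41 member probes of 26 genes (32.3% of the members' probes, against 41.0% of all probes). Of these 41 probes, 24 passed on all 4 arrays. In 16 others the high-fertile pools alone met this condition, and in 1 (NUP54 at base 1909) the low-fertile pools did, so these probes entered through 1 group alone. The 14 genes KPNB1, KPNA4, KPNA7, IPO7, TNPO2, XPO1, NUP35, NUP37, NUPL2, NUP50, NUP153, NUP210, RANBP2 and RANBP9 had no probe well above background on any array, and their 24 probes read processed signals between 3.17 and 16.6. These include KPNB1, the importin beta that carries importin alpha and its cargo into the nucleus, whose brighter probe (base 2802) read 16.2 and 13.1 against 13.6 and 11.55 in low-fertile bulls. They also include XPO1, the main exportin of proteins, which read 5.31 and 9.47 against 3.63 and 7.13 at base 2505, the brightest of its 4 probes. The 12 genes RANBP1, RANBP6, NUP62, NUP98, NUP107, NUP133, NUP155, KPNA5, KPNA6, IPO11, XPO5 and XPO7 were well above background on some array but not on both of a group, with signals between 3.14 and 41.0. For these 26 genes no fold change was fitted.

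The labelled cell type was checked against marker lists. Of 20 sperm markers, 9 were tested, with the protamine PRM1, the transition protein TNP1, the acrosomal protease ACR and the tail protein ODF1 well above background on all 4 arrays. PRM1 was the only one of the 9 to pass and was higher in the low-fertile pools (log2 fold change 0.67). PRM2 was well above background in high-fertile pool 1 alone, and AKAP4, SMCP, LDHC and PGK2 on none of the arrays. Markers of other cells were also present: 9 of 10 leukocyte markers were tested, with CD3D lower and PTPRC higher in low-fertile bulls, and their summed processed signal was 26469 and 25947 for high-fertile and 30968 and 30411 for low-fertile bulls, of which LYZ and PTPRC made up the greater part. In the same fit 8 of 9 markers of somatic testis cells on the array were tested (1 higher, STAR) and 6 of 8 of epithelium (1 higher, CLDN7). Of red cell markers 2 of 5 were tested (1 higher, HBB), and of early germ cell markers 1 of 8 (ZBTB16, which did not pass). HBB met the condition through the low-fertile pools only, in which it was higher, so its call is not independent of the filter. Over all genes tested 16.6% were lower and 9.53% higher. The summed signal over the 20 sperm markers ranged from 950.1 to 1109 in the high-fertile pools and from 893.2 to 1117 in the low-fertile pools. The part of other cells in the values below was not tested.

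Values are normalized log2 signals, in which 0 is the 75th percentile of an array, and log2 fold changes are low-fertile minus high-fertile with the standard error (SE) of the fit in limma. An adjusted p under 0.05 over all probes tested was reached by 15 of the 41 member probes, 12 of them with lower and 3 with higher signal in the low-fertile pools. Over all 21033 probes tested the share was 26.8% in either direction, 17.6% lower and 9.22% higher. Since this contrast chose the group, nothing is read from the comparison of those shares. Counted by the brightest tested probe of a gene, 6 genes were lower, 3 higher and 17 did not pass, beside 16.6% lower and 9.53% higher over the 16685 genes tested. The median log2 fold change over the 26 genes was 0.10, with 12 below 0 and 14 above, and over all genes tested it was 0.01. With IPO5 taken by its other tested probe, since the brightest shares sequence with probes of other genes, the median was 0.03 with 13 genes on each side, and with normexp background correction it was 0.0058. The values of the groups did not overlap for 16 probes that were lower (35.5% of all probes tested) and 17 that were higher (33.6%), and they overlapped for 8. Scaling the arrays by their spike-in controls instead of the percentile changed every log2 fold change by -0.37, which moved the median of all tested probes to -0.38 and that of the member genes to -0.27, and it gave 16 lower and 0 higher member probes, beside 32.1% lower and 2.75% higher of all probes. No member probe was called higher under that scaling, nor with high-fertile pool 1 or 2 left out, where 3.38% and 2.85% of all probes were. Those 2 fits each called 10 member probes lower, beside 10.3% and 9.71% of all probes. Among the 24 probes that passed on every array, 8 were lower and 2 higher, beside 9.89% and 13.2% of the 12552 such probes on the array. The 4 other lower calls (NUP43, IPO8 and 1 probe each of KPNA1 and KPNA2) came from probes that met the condition through the high-fertile pools only, in which they were higher, so those calls are not independent of the filter.

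**Figure D2:**
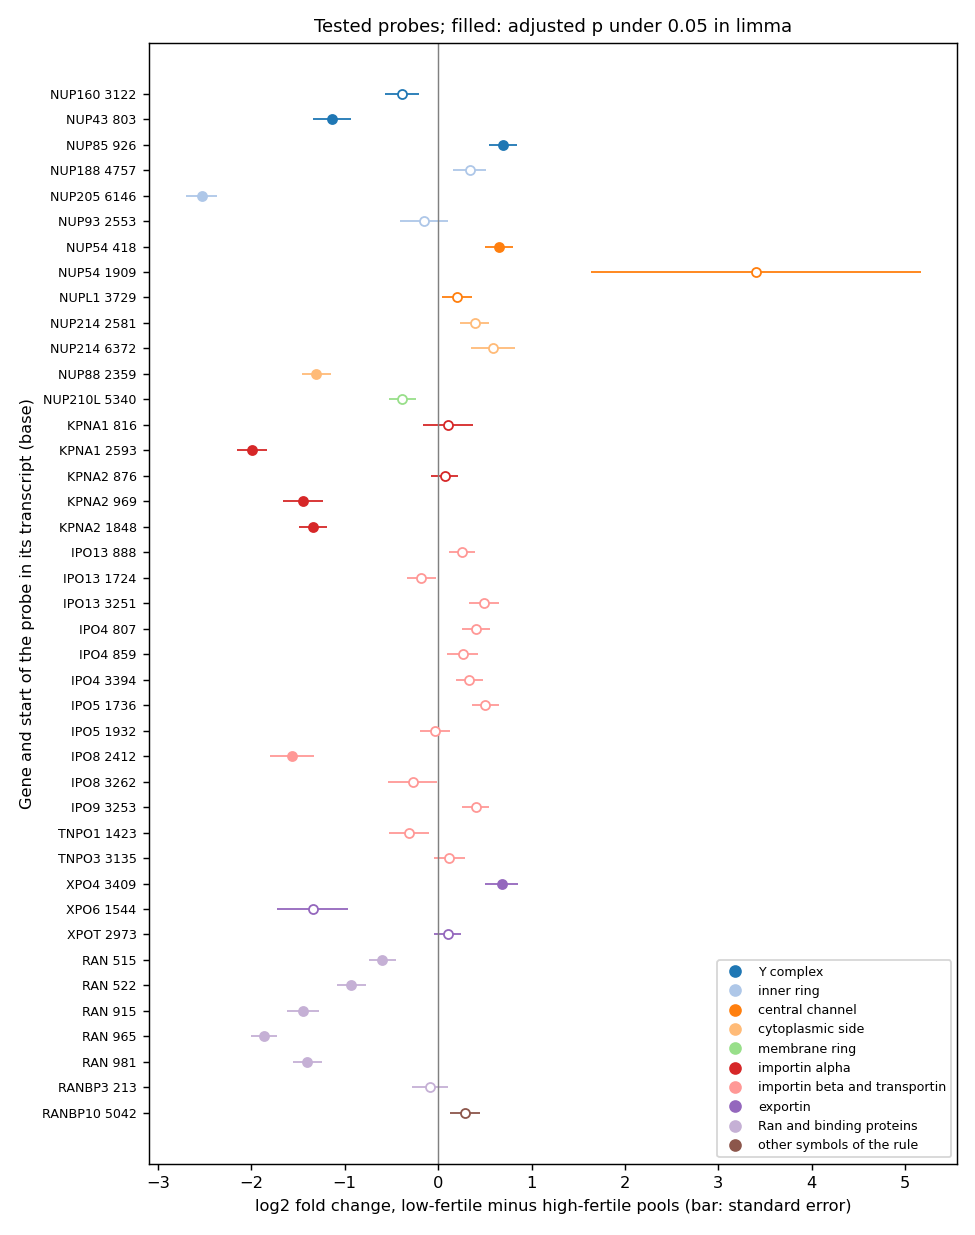
Log2 fold change (low-fertile minus high-fertile pools, horizontal axis) with its standard error for the 41 tested probes, grouped by role, each named by gene and transcript start. Filled points reached an adjusted p under 0.05 in limma; NUP205 is farthest to the left at -2.53, and the probe of NUP54 at base 1909 has a standard error of 1.77.

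RAN, the GTPase that powers transport in both directions, was lower in the low-fertile pools at all 5 of its probes, and every probe was well above background on all 4 arrays. Its brightest probe, at transcript base 981 (chr17:48796088-48796147, minus strand), read 5.33 and 5.22 in high-fertile pools 1 and 2 and 3.79 and 3.96 in low-fertile pools 1 and 2. These correspond to processed signals of 1472 and 1383 against 511.9 and 507.3, and the log2 fold change was -1.40 (SE 0.151), or 2.64-fold. The gap between the groups was far wider than the gap between pools of a group. The probe at base 965, which overlaps it by 44 bases of which 3 differ, read 4.89 and 4.89 against 3.01 and 3.04, a difference of -1.87 (SE 0.139). The probe at base 915 read 3.55 and 3.83 against 2.15 and 2.33 (-1.45, SE 0.172). The overlapping probes at bases 515 and 522, shown above, gave smaller differences of -0.60 (SE 0.142) and -0.93 (SE 0.156). Thus the 5 probes are not separate readings, and the difference ranged from 1.51-fold at base 515 to 3.64-fold at base 965. The probe at base 981 shares at least 20 bases in a row with a probe that has no gene name and was placed on chromosome 4 (chr4:71164695-71164754). That probe read processed signals of 531.6 and 523.5 against 181.8 and 159.6 (log2 fold change -1.54), and signal of RAN and of a copy elsewhere in the genome cannot be told apart by either.

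None of the Ran-binding proteins tested passed. RANBP3, a cofactor of export by XPO1, read 0.20 and -0.04 in the high-fertile and 0.19 and -0.20 in the low-fertile pools at its only tested probe of 4 (log2 fold change -0.09, SE 0.20), and the groups overlapped. RANBP1, which helps Ran to hydrolyse GTP, was well above background in low-fertile pool 1 alone, with processed signals at base 232 of 14.7 and 6.68 in the high-fertile and 29.9 and 25.4 in the low-fertile pools. RANBP9 and RANBP10 carry the symbol but are scaffold proteins and not carriers. RANBP10 read 0.93 and 0.72 against 1.05 and 1.19 (0.29, SE 0.16) and did not pass.

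In the inner ring, NUP205, the scaffold protein whose value proposed the group, read 2.65 and 2.44 in high-fertile pools 1 and 2 and -0.09 and 0.12 in low-fertile pools 1 and 2. The processed signals were 230.9 and 201.6 against 34.8 and 35.4, all well above background. Its log2 fold change was -2.53 (SE 0.165), or 5.79-fold, and by size of fall it took place 6 among the 12552 probes that passed on every array and place 213 among all 21033 tested. The low-fertile values lay close to the 75th percentile of their arrays and the high-fertile values far above it. With normexp background correction the difference was -1.35. NUP188, the close relative of NUP205 in the same ring, read 0.95 and 1.21 against 1.54 and 1.30 (0.34, SE 0.175), and NUP93, which links ring and channel, read 1.30 and 2.01 against 1.44 and 1.55 (-0.16, SE 0.26). Neither passed. Hence 1 of the 3 inner ring genes tested was lower (16.6% of all genes were), and that gene is the one that proposed the group and rests on a single probe.

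In the Y complex, which forms the outer rings, 1 of 3 tested genes was lower, 1 higher and 1 did not pass (16.6% and 9.53% of all genes were lower and higher). NUP43 read 0.51 and 0.62 for high-fertile and -0.81 and -0.34 for low-fertile bulls at base 803 (chr9:90083156-90083215, minus strand), a difference of -1.14 (SE 0.202), which was -0.38 with normexp background correction. The signal of low-fertile pool 2, 25.8, was not well above background, so the probe entered through the high-fertile pools alone, and its call was lost with either high-fertile pool left out. NUP85 was higher, with -0.22 and -0.02 against 0.58 and 0.57 (0.70, SE 0.152), and its 2 spots gave like signals on each array, but it did not pass with any of the 4 pools left out and was 0.27 with normexp background correction. The 4 other probes of NUP85 were not well above background on any array. NUP160 had a log2 fold change of -0.38 (SE 0.181) and did not pass.

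The cytoplasmic side of the pore, where exported RNA and cargo leave, had 2 tested genes. NUP88 read 1.22 and 1.40 in the high-fertile and -0.06 and 0.07 in the low-fertile pools at its only probe (chr19:26457856-26457915, plus strand), a difference of -1.30 (SE 0.153), and all 4 values were well above background. With normexp background correction the difference was -0.77. Its binding partner NUP214 did not pass and lay on the other side of 0 at both tested probes. The brighter of these, at base 6372, read 0.95 and 0.39 against 1.11 and 1.41 (0.59, SE 0.236), and the probe at base 2581 had a log2 fold change of 0.39 (SE 0.156). RANBP2, which forms the filaments, and NUPL2 (now NUP42) gave no signal well above background.

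Among nucleoporins of the central channel, NUP54 passed at base 418 with 0.31 and 0.38 in the high-fertile and 0.92 and 1.07 in the low-fertile pools (0.65, SE 0.148). The value was 0.32 with normexp background correction, and the call was lost in 7 of 15 alternatives. At its probe at base 1909 the processed signals were 15.4 and 15.05 for the high-fertile pools, 21.2 for low-fertile pool 1 and 1081 for low-fertile pool 2. On that array 3 of the 6 spots nearest to it also departed from the other arrays by over 2 log2 units. That probe gave a log2 fold change of 3.40 with an SE of 1.77 and did not pass, so it is a reading of 1 spot. NUPL1 (now NUP58), the partner of NUP54 in the channel, read -0.03 and 0.23 against 0.27 and 0.34 (0.20, SE 0.160) and did not pass. In the membrane ring NUP210L, a relative of NUP210, read -0.09 and 0.03 against -0.44 and -0.39 (-0.38, SE 0.14) and did not pass, and both genes of the nuclear basket, NUP50 and NUP153, were not well above background on any array.

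**Figure D3:**
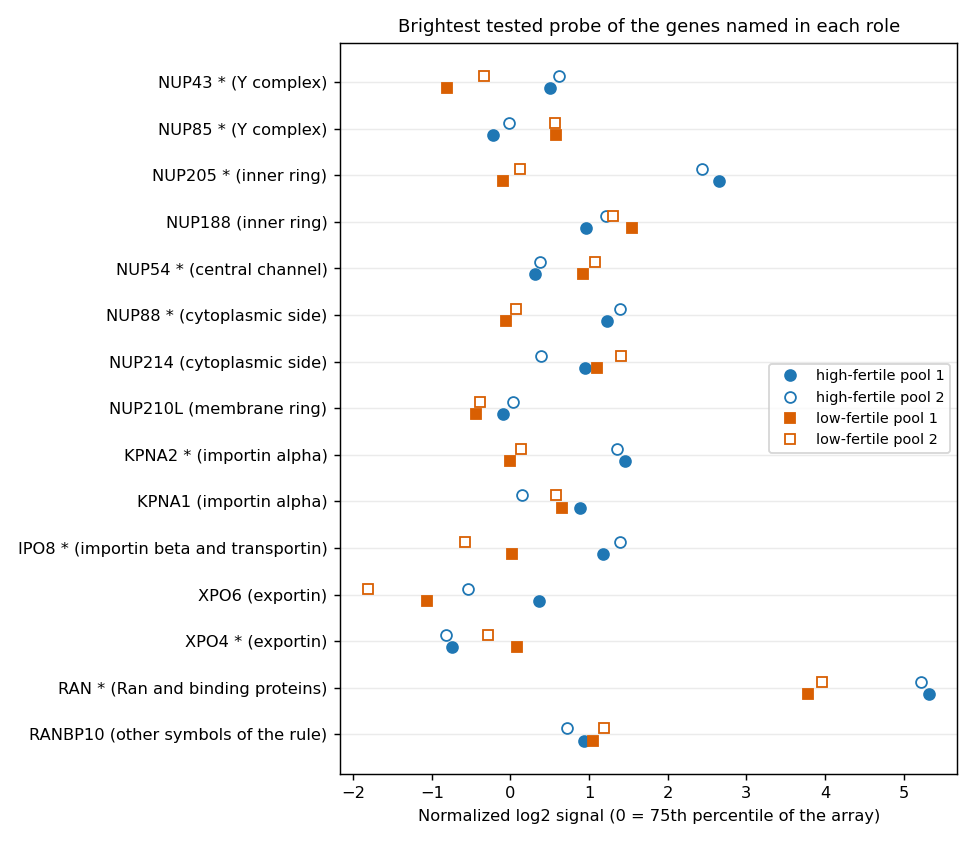
Normalized log2 signal of the brightest tested probe of the genes with the largest fall and the largest rise in each role, 1 point per pool. On the horizontal axis 0 is the 75th percentile of the array. Where no tested gene of a role fell, or none rose, only the other is shown. IPO5 lies off this scale and is plotted elsewhere. An asterisk marks an adjusted p under 0.05 in limma; NUP205 shows the widest gap between groups, and for KPNA1 the low-fertile values lie between the high-fertile ones.

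Importins alpha bind the nuclear localization signal of a cargo and link it to KPNB1, and 2 of 6 were tested. KPNA2 was read by 3 probes. At base 1848, the brightest, it read 1.46 and 1.35 in the high-fertile and -0.01 and 0.14 in the low-fertile pools (-1.34, SE 0.149), and -0.71 was its difference with normexp background correction. At base 969 (chr19:50460825-50460884, minus strand) high-fertile bulls gave processed signals of 28.7 and 34.7 and low-fertile bulls 13.7 and 8.64, neither of which was well above background, so this probe was at least 2.73-fold lower. At base 876, whose mapped interval lies close to that of the probe at base 969, the values were 0.77 and 0.61 against 0.74 and 0.77, a difference of 0.07 (SE 0.15), and the groups overlapped. Hence 2 of 3 KPNA2 probes passed and the 3 did not give the same reading. KPNA1 split likewise. Its probe at base 2593 (chr1:67961734-67961793, minus strand) read 0.40 and 0.21 in the high-fertile pools and was not well above background in either low-fertile pool, which made it at least 3.98-fold lower. Its probe at base 816 was well above background on all arrays and read 0.89 and 0.14 against 0.65 and 0.58 (0.10, SE 0.26), with overlapping groups.

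Importins of the beta family and transportins bind cargo directly or, as KPNB1 does with importin alpha, through an adaptor. Of the 7 tested genes 1 was lower and 6 did not pass (16.6% of all genes were lower). IPO8 read 1.18 and 1.39 in the high-fertile and 0.02 and -0.58 in the low-fertile pools at base 2412 (-1.56, SE 0.237), but -0.21 and 0.44 against 0.01 and -0.33 at base 3262 (-0.27, SE 0.26), where the groups overlapped. Neither probe was well above background in low-fertile pool 2, and both entered through the high-fertile pools, so the lower call at base 2412 is not independent of the filter. With normexp background correction its difference was -0.72. The 3 tested probes of IPO4, an importin of histones and ribosomal proteins, lay at log2 fold changes of 0.41, 0.26 and 0.33, and at each of them both low-fertile pools lay above both high-fertile pools. None of the 3 passed, and under the spike-in scaling the probes at bases 859 and 3394 would lie below 0. IPO9 had 1.84 and 1.93 against 2.24 and 2.34 (0.40, SE 0.145) and IPO13 differences of 0.25, -0.18 and 0.50 at its 3 tested probes. TNPO1, which imports many RNA-binding proteins, and TNPO3, which imports splicing factors, had log2 fold changes of -0.31 and 0.12. For TNPO3 the values, 2.84 and 3.11 against 3.01 and 3.17, overlapped.

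IPO5, an importin of ribosomal proteins, was read by 4 probes, of which that at base 1736 shares sequence with probes of other genes. At base 1736 the processed signals were 83544 and 84519 in the high-fertile and 114572 and 110454 in the low-fertile pools (log2 fold change 0.51, SE 0.144, not passed). This probe was placed on chromosome 2, whereas the 3 other IPO5 probes were placed on chromosome 12. The capitals in its sequence above cover runs of 20 bases found in 6 probes of 5 other names, MTMR2, KIAA0226L, MBL2, YARS2 and SLC5A12, which the array design placed on chromosomes 5, 12, 15 and 26. Those 6 probes read between 38902 and 186314 on every array, and their log2 fold changes ran from 0.45 to 0.97. The IPO5 probe at base 1932 read 1334 and 1121 against 1167 and 1084 (-0.03, SE 0.162), with overlapping groups, and on no array were those at bases 380 and 3193 well above background. The value at base 1736 is therefore not given as a level of IPO5. With the median over tested probes the log2 fold change of IPO5 was 0.24, and quantile normalization moved that of the brightest probe to 0.01.

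**Figure D4:**
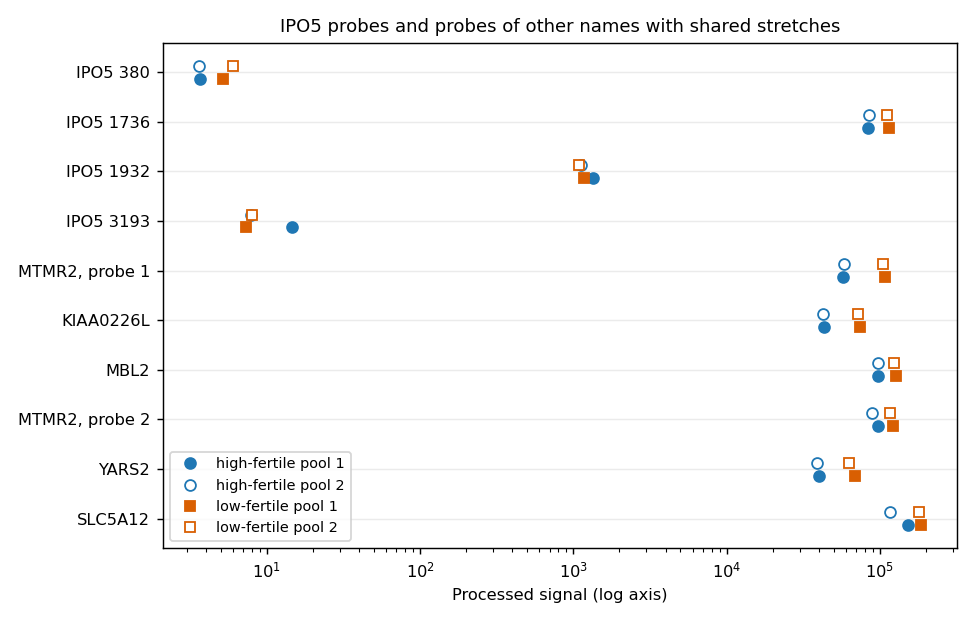
Processed signal (horizontal log axis) on the 4 arrays for the 4 IPO5 probes, named by transcript start, and for the 6 probes of other gene names that share stretches of at least 20 bases with the IPO5 probe at base 1736. The probe at base 1736 lies with the 6 others, at 38902 or above, and apart from the other IPO5 probes, of which the brightest reads 1084 to 1334.

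Exportins carry cargo out of the nucleus, and 3 of 6 were tested. XPO4 read -0.75 and -0.81 in the high-fertile and 0.08 and -0.29 in the low-fertile pools at base 3409 (0.68, SE 0.179) and was counted as higher, although the signal of low-fertile pool 2 was not well above background. That call was lost in 9 of 14 alternatives, among them normexp background correction (0.19), the deposited value table and 3 of the 4 fits with a pool left out. Its 3 other probes were not well above background on any array. XPO6, the exportin of actin, read 0.37 and -0.55 in the high-fertile pools at base 1544, was not well above background in the low-fertile pools and was at least 2.54-fold lower. The spread within the groups was wide there and the fitted difference (-1.34, SE 0.382) did not pass. It was -0.89 without high-fertile pool 1 and -0.41 with normexp background correction, and in 7 of 14 alternatives, those with high-fertile pool 2 or low-fertile pool 1 left out among them, it passed. The probe entered through the high-fertile pools only, in which it was higher, so those passes are not independent of the filter. XPOT, which exports transfer RNA, had a log2 fold change of 0.10 (SE 0.145). XPO7 was well above background in low-fertile pool 2 alone, where 1 of its 2 spots read 108.1 with 4 of its 6 neighbours departing from the other arrays, and the other spot read 7.37.

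Several genes thus depended on which probe was read. Of the 9 members with at least 2 tested probes of 1 transcript, the probe nearer the 3′ end had the lower log2 fold change in 5 (55.6%), with a median difference of -0.07. Over all 2624 genes with such probes the share was 57.9% and the median difference -0.15. Among the members, the largest difference the other way (NUP54, 2.75) rests on its probe at base 1909, a reading of 1 spot. Where both probes passed on every array, the 4 members left were lower at the 3′ probe, against 59.4% of 1147 genes. The median difference was -0.67 for these members and -0.13 for those genes. These 4 were RAN, KPNA2, IPO4 and IPO5, of which the last rests on the probe shared with other genes. KPNA1 and IPO8 differed in opposite senses along the transcript. The median share of G and C was 40% in the 12 probes that were lower, 45% in the 3 that were higher and 45% in the 26 that did not pass, and its part in these values was not tested.

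**Figure D5:**
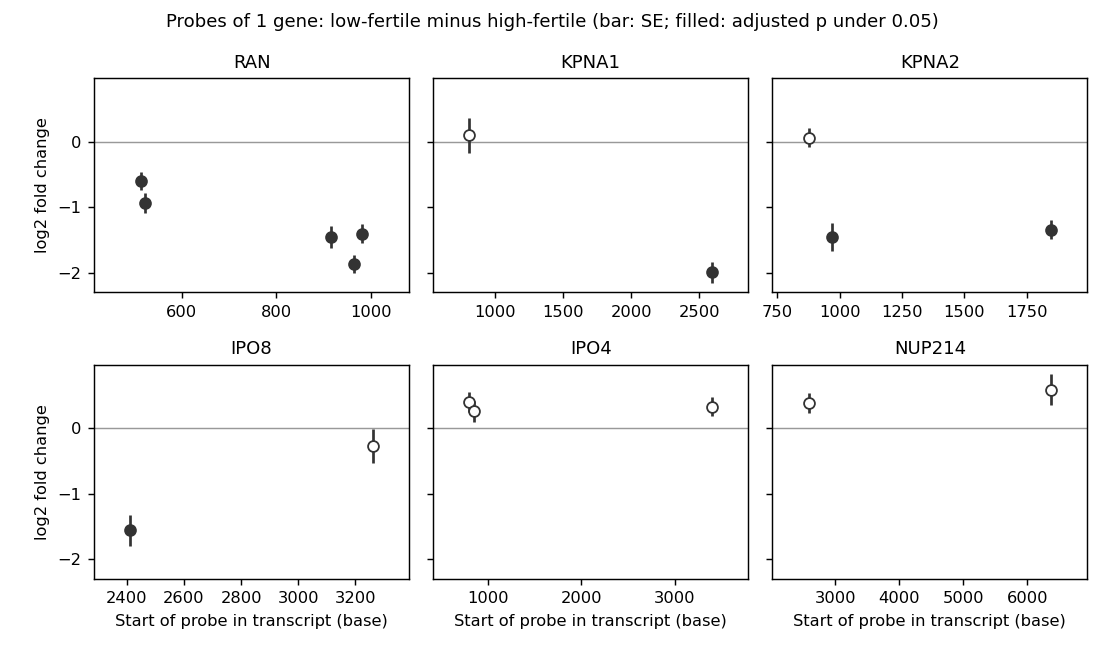
Log2 fold change (low-fertile minus high-fertile pools, vertical axis, bars are standard errors) against the start of the probe in its transcript (bases) for 6 genes with at least 2 tested probes. Filled points reached an adjusted p under 0.05 in limma; RAN is below 0 at each of its 5 probes, KPNA1, KPNA2 and IPO8 have a probe near 0 and another below -1, and IPO4 and NUP214 lie above 0 at every tested probe in this percentile scaling, though with the spike-in scaling 2 of the 3 IPO4 probes do not.

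Other genes of nuclear transport whose symbols fall outside the rule were described from a list of partners, of which 25 were on the array and 11 tested. By their brightest probe 1 was lower, 1 was higher and 9 did not pass (16.6% and 9.53% of all genes were lower and higher), with a median log2 fold change of -0.18. RAE1 did not pass at its brightest probe (-0.49), and its other tested probe had a log2 fold change of -1.97. GLE1, which acts with the cytoplasmic filaments in release of exported mRNA, read 0.96 and 0.85 in the high-fertile and -0.84 and -0.67 in the low-fertile pools, and it fell by 1.66 on the log2 scale (SE 0.151, limma adjusted p = 0.00277). It passed the filter through the high-fertile pools only, in which it was higher, so that p is not independent of the filter. AAAS, a nucleoporin known as aladin, rose by 0.68 (SE 0.146, limma adjusted p = 0.0237). The regulators of the Ran cycle did not pass: RANGAP1, which switches Ran off, read 4.86 and 4.90 against 4.71 and 4.88 (-0.08, SE 0.148), and RCC1, which loads it with GTP, had a log2 fold change of 0.04 (SE 0.257). NUTF2, which carries Ran back into the nucleus, read 0.89 and 0.81 against 0.53 and 0.23, with a log2 fold change of -0.47 (SE 0.167, limma adjusted p = 0.0907) at its brightest probe. Of its 2 other tested probes, that at base 409 had a log2 fold change of -0.39 and did not pass. That at base 734 passed with -1.44 (SE 0.319, limma adjusted p = 0.0262). Both entered through the high-fertile pools only, in which they were higher, so that p is not independent of the filter. With the spike-in scaling 6 partners were lower and 0 higher (31.4% and 2.92% of all genes), and with high-fertile pool 1, high-fertile pool 2 or low-fertile pool 2 left out the higher call was lost.

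The nuclear lamina and envelope, in which the pores sit, had 18 listed genes on the array and 11 tested, of which 5 were lower, 0 were higher and 6 did not pass (16.6% and 9.53% of all genes were lower and higher), with a median log2 fold change of -0.48. At an unadjusted p under 0.05 limma counted 7 of the 11 genes and the methods' t-test 4. Over all probes tested, a share counted by probe and not by gene, these were 41.6% and 28.9%. Of the 5 lower genes LEMD3 alone was well above background on all 4 arrays. The 4 others (SYNE2, TOR1AIP2, LEMD2 and BANF1) passed the filter through the high-fertile pools only, in which they were higher, so their adjusted p is not independent of the filter. Other scalings gave 4 lower and 1 higher, beside 15.9% and 10.5% of all genes under quantile normalization and 14.1% and 9.73% with a percentile over detected probes. Normexp background correction gave 4 lower and 3 higher, beside 20.6% and 14.2%. LEMD3, an inner membrane protein, fell by 1.17 (SE 0.141, limma adjusted p = 0.00486), and its other tested probe had a log2 fold change of 0.20. SYNE2, which links the nucleus to the cytoskeleton, was not well above background in either low-fertile pool at its brightest probe. It was at least 2.06-fold lower there (limma adjusted p = 0.0106), and its other tested probe had a log2 fold change of -2.31. TOR1AIP2 was likewise not well above background in either low-fertile pool and was at least 1.93-fold lower (limma adjusted p = 0.0400). LEMD2 fell by 0.68 (SE 0.172, limma adjusted p = 0.0387). BANF1 fell by 0.84 (SE 0.163, limma adjusted p = 0.0173) at its brightest probe, while its other probe had a log2 fold change of 0.50. LBR did not pass at its brightest probe (0.52), and its other tested probe had a log2 fold change of -1.48. LMNA and LMNB1, which encode the lamin filaments, read 4.99 and 4.84 against 5.05 and 5.23 (0.22) and 2.55 and 2.81 against 2.73 and 2.94 (0.15), and neither passed. A separate fit over only the probes that passed on every array called 1 lamina gene lower and 2 higher, beside 12.3% and 21.6% of the genes in that fit. The values without each pool stand in the closing section.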

How the data were processed

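Scanner output of 4 arrays was deposited as linear intensity, made by the authors with Feature Extraction 11.5.1.1, which subtracts background array by array and gives a spot at or under background a substitute value. A deposited table held log2 values after a shift by the 75th percentile. Every column was mapped to a pool. From the scanner output, outlier spots were left out, log2 processed signals of a probe were averaged and the percentile over non-control probes was subtracted. The processed signal at that percentile was 36.7, 37.1, 37.0 and 32.7 on the arrays of high-fertile pools 1 and 2 and low-fertile pools 1 and 2. For probes with several spots a mark counted if a share of 0.5 or more of the spots had it. The 21033 probes that both pools of some group showed well above background were fitted in limma 3.58.1 (R 4.3.3, Python 3.11.15, pandas 2.3.3, numpy 2.4.6), with Benjamini-Hochberg adjustment and a prior of 3.52 degrees of freedom. The fit was also run on simulated data, and the outcome is not given here. The number of arrays limits the precision.

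A gene was read from its brightest tested probe. A bound ("at least N-fold") was given where neither pool of a group was well above background, taking on each array the higher of the probe's own value and the lowest value among probes well above background. Named with values on every array were NUP205, RAN, KPNB1, XPO1 and in each role the genes with the largest fall and the largest rise, where there were any. Members whose probes differed by over 1 log2 unit or passed in opposite directions were named with their probes. The 3 largest falls and rises past the threshold among the partner and lamina lists were also named. Any other member could be named with its fold change. RAE1, RANGAP1, RCC1, NUTF2, LBR, LEMD2, BANF1, LMNA, LMNB1 and the single marker genes were named after their values were seen. Members and lists were chosen with earlier results of these data known. Of 107 member probes with a RefSeq accession, 103 matched a current symbol and 4 of these another symbol (NUPL1 and NUPL2). Alternatives were normexp background correction, other scalings (a percentile over detected probes, quantile, spike-in), other filters, the deposited table, bright patches left out, a replicate block, each pool left out, and the methods' t-test. Sperm function, PCR and pathway analysis were not used here, and some genes are not reported here.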

Additional observations from a re-analysis of the deposited data

How the results depend on the processing

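Each result was recomputed with 1 choice changed at a time. Of the alternatives for the counts, medians and NUP205, 72 stayed within their limits, 22 moved and 1 reversed. The median log2 fold change of the member genes reversed to -0.27 under spike-in normalization, where 19 of 26 genes were below 0, and it ranged from 0.05 to 0.13 with a pool left out. It was -0.07 without the filter on dim probes (27 of 52 genes below 0), 0.0058 with normexp background correction, 0.0085 with the median over a gene's probes, 0.25 over probes that passed on every array, and 0.03 with IPO5 by its other tested probe, a choice made after seeing the data. Without the filter on dim probes limma called 0 of 127 member probes (28 with an unadjusted p under 0.05), 0 of all 51282 probes (9278 unadjusted), 0 partner genes (5 unadjusted) and 0 lamina genes (7 unadjusted). The methods' t-test called 0 of the member probes (20 unadjusted), 0 of all probes (6084), 0 partner genes (3) and 0 lamina genes (4). Spike-in normalization gave 6 partner genes, all lower, and -2.91 for NUP205, and normexp background correction gave -1.35. Over all probes spike-in normalization gave 6750 lower and 578 higher calls, against 3692 and 1940. Among probes well above background on all arrays 24 member probes and 3 lamina genes were counted, and the split over all probes was 1625 lower and 2714 higher. Lamina calls split into 1 lower and 2 higher there, 4 and 3 under normexp background correction, and 4 and 1 under quantile normalization or a percentile over detected probes. The weaker mark of the scanner software gave 91 member probes.

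With a pool left out, member probes past the threshold ranged from 10 to 14, all probes from 2640 to 4989, partner genes from 1 to 3, lamina genes from 1 to 4, member probes well above background from 42 to 54 and NUP205 from -2.64 to -2.43. Without high-fertile pool 1 or 2 there were 10 lower and 0 higher member calls each, all probes fell to 2872 and 2640 calls, partners from 2 to 1 and 1, and lamina genes to 3 and 1. Without low-fertile pool 1 or 2 members had 2 and 1 higher calls, partners 3 and 1 calls, and lamina genes fell to 4 and 2. These fits take the spread of a lone pool to be that of the other group. Of the calls of named members, that of NUP54 turned in 7 of 15 alternatives, NUP85 in 7 of 15, XPO4 in 9 of 14, XPO6 in 7 of 14 and NUP43 in 4 of 14. IPO5, not called in the main fit, passed in 4 of 15 alternatives at its probe shared with other genes. KPNA1 and NUP214 passed in 1 of 15 each and NUP210L in 1 of 14. The causes were not tested.

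Pool numbers were not taken to pair samples: deviations of same-numbered pools correlated at r = 0.0055 over 21024 probes. With the pool number as replicate block limma called 15 member probes, as without it, 5331 of all probes, 2 partner genes and 4 lamina genes. The 15 were not all the same probes, since that of XPO6 passed with the block and not without it. Signal over background limits the rest: 68 of 127 member probes were not well above background on any array.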
